A study of Mus musculus with 12 samples.

Results

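The comparison was of hippocampal microRNAs (miRNAs) in vehicle-injected mice with and without the P2X7 receptor, and it asks what loss of the receptor does to the miRNA profile when no seizure has been induced. Both groups were C57BL/6 mice given as 8 weeks old in the sample labels, either wild type (wt control) or P2rx7-/- (P2rx7-/- control). Per the methods of the study the mice were male, covered a wider age range, and the knockout line lacks exon 2 of P2rx7. Mice of both genotypes received vehicle (phosphate-buffered saline) into the amygdala and then the anticonvulsant lorazepam, and no kainic acid. The hippocampus on the injected side was taken 8 h after the vehicle. Hippocampi of 2 mice were pooled for each sample, and there were 3 samples per genotype, 6 of the 12 samples of the study. The other 6, 3 of each genotype, were taken after kainic acid-induced status epilepticus (post-SE) and are used only for comparison. Of 619 miRNA assays on the TaqMan OpenArray, the 377 with a threshold cycle (Ct) in all 6 vehicle samples were analyzed. A miRNA that is more abundant crosses the threshold at a lower Ct, by 1 cycle for about each doubling, so levels are given as the mean Ct of the sample over these 377 assays minus the Ct of the assay, on a log2 scale. A larger level means more miRNA, and differences are P2rx7-/- control minus wt control. P2rx7 itself is an mRNA that the array does not measure, so the genotype labels could not be checked in these data.

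The P2X7 receptor is an ion channel that opens on high extracellular ATP, and in brain it is best known on microglia, where its opening drives the release of interleukin-1β. MiRNAs are short RNAs that pair, mainly through their seed, with sites in mRNAs and lower the stability and translation of these. MiRNAs with the same seed share many predicted targets, and each hairpin precursor can give a guide strand and a less abundant passenger strand, which the table marks with #. In bulk hippocampus, fewer cells of a type and less miRNA per cell cannot be told apart.

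The mature sequences below are those of mouse RefSeq (GRCm38.p6), with the seed, bases 2 to 8, in capitals. All 24 names looked up were matched. The sequences on the array itself are not given in the files, and assays named hsa- or rno- are named for the human or rat miRNA. The miR-182 assay had the lowest p of all 377, and the other members of its cluster are shown because their seeds differ from that of miR-182.
mmu-miR-182-5p: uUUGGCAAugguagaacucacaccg
mmu-miR-96-5p: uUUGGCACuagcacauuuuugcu
mmu-miR-183-5p: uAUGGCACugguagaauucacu
These lie on the minus strand of chromosome 6 within the span of the non-coding gene Mirc35hg, miR-182-5p at chr6:30165962-30165986, miR-96-5p at chr6:30169506-30169528 and miR-183-5p at chr6:30169711-30169732.

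The miR-34 and miR-449 family is shown because miR-34a and miR-34b-5p share a seed and had differences of opposite sign between the genotypes. The assay hsa-miR-449, set beside miR-449a-5p, had no Ct in wt control replicate 1 and was not analyzed. The sequences of miR-34c and miR-449b are not among those shown.
mmu-miR-34a-5p: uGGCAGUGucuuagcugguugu
mmu-miR-34b-5p: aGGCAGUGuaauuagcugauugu
mmu-miR-449a-5p: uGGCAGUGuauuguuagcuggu
MiR-34a-5p lies at chr4:150068473-150068494 on the plus strand, in no annotated gene. MiR-34b-5p is at chr9:51103610-51103632 on the minus strand, in the spans of Hoatz and Btg4, and miR-449a-5p at chr13:113037549-113037570 on the plus strand, in the span of Cdc20b.

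MiR-98 belongs to the let-7 family, and its assay is shown beside let-7e and let-7a because the same seed went with differences of different size and sign.
mmu-miR-98-5p: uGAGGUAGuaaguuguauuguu
mmu-let-7e-5p: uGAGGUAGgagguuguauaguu
mmu-let-7a-5p: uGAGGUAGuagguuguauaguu
MiR-98-5p lies at chrX:151913229-151913250 on the plus strand in the span of Huwe1, and let-7e-5p at chr17:17830366-17830387 on the plus strand in the span of Spaca6. Let-7a-5p is shown at chr13:48538239-48538260 on the minus strand, in no annotated gene.

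The next set holds 5 further miRNAs whose levels were lower in every P2rx7-/- control sample than in every wt control sample, and miR-338-5p, the other arm of the miR-338 hairpin.
mmu-miR-338-3p: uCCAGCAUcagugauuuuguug
mmu-miR-338-5p: aACAAUAUccuggugcugagug
mmu-miR-29b-3p: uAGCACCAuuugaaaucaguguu
mmu-miR-29c-3p: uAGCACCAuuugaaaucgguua
mmu-miR-19a-3p: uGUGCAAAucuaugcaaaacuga
mmu-miR-1898: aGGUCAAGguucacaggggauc
Both arms of miR-338 lie in the span of Aatk, on the minus strand, at chr11:120014781-120014802 (3p) and chr11:120014816-120014837 (5p). MiR-29b-3p comes from chr1:195037091-195037113 (plus strand) and chr6:31063025-31063047 (minus strand), and miR-29c-3p from chr1:195037600-195037621 (plus strand) beside the first copy of miR-29b, both in the span of the non-coding gene A330023F24Rik. MiR-19a-3p is at chr14:115044048-115044070 on the plus strand, in no annotated gene, and miR-1898 at chr15:12171502-12171523 on the plus strand in the span of Zfr.

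The last pair is from the other direction, miR-1904 because it was higher in every P2rx7-/- control sample, and miR-218 because it had a Ct in no wt control sample.
mmu-miR-1904: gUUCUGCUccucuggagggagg
mmu-miR-218-5p: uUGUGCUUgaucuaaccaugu
MiR-1904 lies at chr13:109903819-109903840 on the plus strand in the span of Pde4d. MiR-218-5p comes from chr5:48223966-48223986 in the span of Slit2 and from chr11:35616840-35616860 in the span of Slit3, both on the plus strand. The reference table used for these positions gives gene spans without exons.

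One of the 6 samples stood apart, wt control replicate 1. It had a Ct for 470 of the 619 miRNA assays against 488 to 538 in the others, and it was the only sample without a Ct for 55 assays. Of the 377 miRNAs, 90 were over 2 cycles away from the median of its 5 companions, against 9 to 40 for each of the others. Its repeat wells of the control RNA snoRNA135 had an SD of 3.63 cycles against 0.197 to 0.583 in the other samples. Counts over all miRNAs and medians of lists are therefore given with this sample and without it, and so is the difference of a named miRNA where its sign turned or its size moved by more than 1.5 times.

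Distances between samples of different genotype overlapped those within a genotype, both with and without wt control replicate 1. The distance between a pair of samples, the median absolute difference over the 377 miRNAs, was 0.894 to 0.990 cycles between wt control replicate 1 and the P2rx7-/- control samples and 0.751 to 0.832 cycles between it and the other wt control samples. Among the other 5 samples, the distance between genotypes ran from 0.273 to 0.637 cycles over 6 pairs, that between P2rx7-/- control samples from 0.389 to 0.764, and that between wt control replicates 2 and 3 was 0.340. The closest of all 15 pairs was of different genotypes, wt control replicate 2 and P2rx7-/- control replicate 2. Across miRNAs, the mean levels of the genotypes had a Spearman rho of 0.926, and 0.964 without wt control replicate 1, a description over 377 assays that are not independent replicates.

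**Figure D1:**
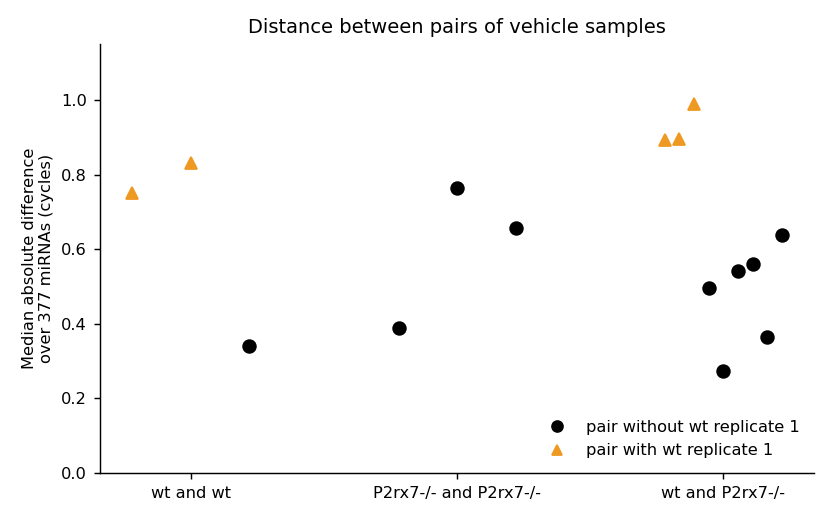
Median absolute difference in level over 377 miRNAs (cycles, y axis) for every pair of the 6 vehicle samples, by the genotypes of the pair (x axis). Orange triangles are the pairs with wt control replicate 1, at 0.751 to 0.990 cycles, and black circles are the other pairs, where the range of pairs of different genotype (0.273 to 0.637) overlaps that of pairs of the same genotype (0.340 to 0.764).

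No miRNA passed the test of the genotype difference. With limma and Benjamini-Hochberg adjustment over 377 miRNAs, 0 (0%) had an adjusted p below 0.05, the lowest adjusted p was 0.792, and 10 (2.65%) had an unadjusted p below 0.05. Without wt control replicate 1 the limma count was again 0, the lowest adjusted p was 0.912 and 9 miRNAs (2.39%) had an unadjusted p below 0.05. The two-group test of the methods gave 12 miRNAs at an unadjusted p below 0.05 and 0 after adjustment. The median half-width of the 95% interval of a difference was 1.32 on the log2 scale, so that differences smaller than this could not be told from 0 for a typical miRNA.

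Because the mean of each sample was subtracted, the differences average 0 by construction, and their balance around 0 is no finding. The median difference was -0.00 on the log2 scale, 192 of 377 (50.9%) lay below 0, and for 194 (51.5%) the difference was smaller than 0.5 in size. Differences above 1 were measured for 42 miRNAs and below -1 for 51. Without wt control replicate 1 these numbers were 25 and 29, and the median SD within the wt control group was 0.241 in place of 0.586, against 0.548 within the P2rx7-/- control group. The sign of the difference was the same with and without wt control replicate 1 for 300 of the 377.

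By the threshold rule of the methods, which uses the average fold change (FC) of the 3 P2rx7-/- control samples over the average wt control level and no test, 92 miRNAs (24.4%) had an FC above 1.5 and 61 (16.2%) one below 0.6. Without wt control replicate 1 the counts were 80 (21.2%) and 28 (7.43%), and 55 and 18 miRNAs met the rule both ways. The study applied its rule to a smaller set, the miRNAs detected in all 12 samples. Over the 335 assays with a Ct in all 12, the rule gave 71 above 1.5 and 52 below 0.6 in the vehicle samples. For 26 of the 92 only 1 of the 3 P2rx7-/- control samples was above 1.5, and for 28 all 3 were. As a background, the average FC of the 3 wt control samples over their own average level was above 1.5 for 67 of the 377 assays. By construction this average cannot fall below 1. The balance of the directions depended on the averaging and on the scaling. With the geometric mean of the 3 FCs in place of their average, 73 miRNAs were above 1.5 and 75 below 0.6. With the control RNA snoRNA202 as the reference 48 miRNAs were above 1.5 and 160 below 0.6. The snoRNA202 reference moved the median difference of all miRNAs to -0.66, and in wt control replicate 3 only 3 of its 16 wells had a Ct. In wt control replicate 1 its wells had an SD of 3.74 cycles, against 0.0923 to 0.400 in the other samples. Their mean Ct there, which set the scaling, was 11.6 and their median 10.4. How far these wells set the counts was not tested.

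In 50 of the 377 miRNAs (13.3%) the genotypes did not overlap, 13 (3.45%) with all 3 P2rx7-/- control samples higher and 37 (9.81%) with all 3 lower than all wt control samples. For a single miRNA of this kind the two-sided exact permutation test gives p = 0.1, the smallest that 3 samples against 3 allow. If the genotype labels were exchangeable between samples, a share of 0.1 of miRNAs would be of this kind on average, beside the 13.3% measured. The split of 13 and 37 was 18 and 12 with snoRNA135 as the reference, 1 and 91 with snoRNA202, 5 and 51 with the mean of all detected assays and 16 and 28 with the median Ct. Without wt control replicate 1, 32 (8.49%) lay higher and 56 (14.9%) lower. This is a comparison of 3 samples with 2, for which exchangeable labels would give a larger share than for 3 with 3.

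**Figure D2:**
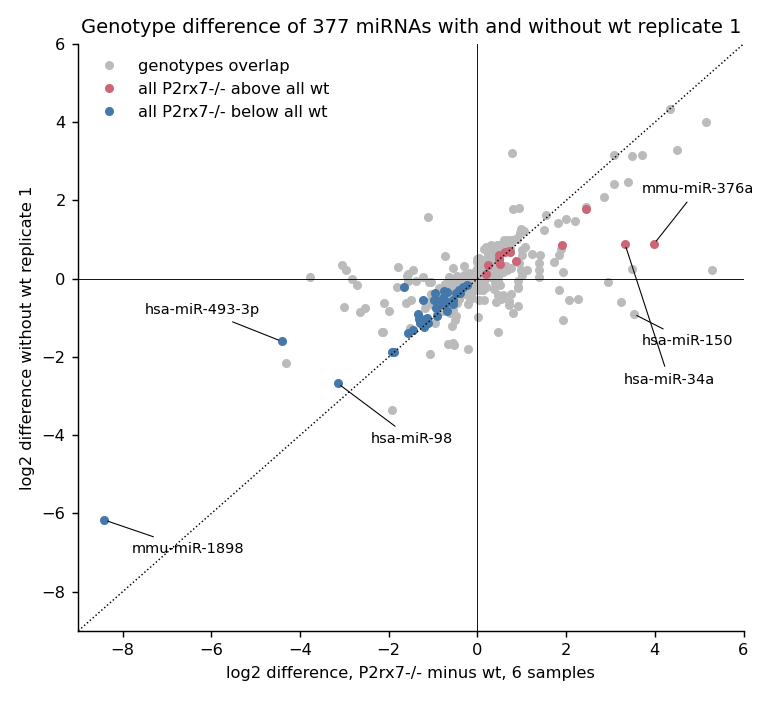
Log2 difference, P2rx7-/- control minus wt control, of each of 377 miRNAs from all 6 samples (x axis) and without wt control replicate 1 (y axis); the dotted line marks equal values. Red points are the 13 miRNAs with all P2rx7-/- control samples above all wt control samples and blue points the 37 with all below. MiR-150 and miR-376a are farther from the line than miR-98, and miR-150 lies on the other side of 0 without that sample.

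MiR-182, which with miR-96 and miR-183 forms a cluster that is abundant in sensory organs, had the lowest limma p. Its levels were -2.64, -2.98 and -2.25 in the wt control samples and -4.08, -3.60 and -3.56 in the P2rx7-/- control samples. All P2rx7-/- control samples were thus below all wt control samples. The difference was -1.12 ± 0.34 (SE, n = 3 per genotype), or 0.461 times the wt level, with an unadjusted p of 0.0188 and an adjusted p of 0.792 in limma, and it was -1.13 without wt control replicate 1. The other cluster members gave no comparison. MiR-183 had Ct values of 25.5, 17.9 and 16.3 in wt control and of 14.4 and 25.2 in 2 P2rx7-/- control samples, and miR-96 had no Ct in any of the 6.

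Of the miR-34 and miR-449 family, known from ciliated cells such as ependyma and, for miR-34a, as a target of p53, miR-449b and miR-34c were lower in all P2rx7-/- control samples. MiR-449b had levels of -4.99, -6.17 and -4.80 in wt control and of -7.03, -6.32 and -7.29 in P2rx7-/- control samples, a difference of -1.56 ± 0.51 (limma adjusted p = 0.792), and of -1.40 without wt control replicate 1. MiR-34c had levels of 2.04, 1.84 and 1.91 in wt control and of -0.44, 1.80 and -1.39 in P2rx7-/- control samples, a difference of -1.94 ± 0.84 (limma adjusted p = 0.792), and of -1.88 without wt control replicate 1. P2rx7-/- control replicate 2 lay just under the lowest wt control sample for miR-34c, and the other P2rx7-/- control samples lay far under it. The passenger strand of the same hairpin, miR-34c#, had a difference of -0.62 and overlapping groups, and miR-34b-5p one of -0.33.

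MiR-34a, with the same seed, lay on the other side of 0. Its levels were -5.62, 1.75 and 1.63 in wt control and 3.68, 2.09 and 1.96 in P2rx7-/- control samples. The groups did not overlap, but wt control replicate 1 was more than 7 cycles below the other wt control samples. The difference of 3.33 ± 2.12 was 0.89 without that sample.

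MiR-338, which is enriched in oligodendrocytes, was measured through both arms. A further assay, hsa-miR-338, was not analyzed because wt control replicate 1 had no Ct. Its Ct values were 18.4 and 17.8 in wt control replicates 2 and 3 and 15.1, 19.1 and 19.2 in P2rx7-/- control samples. There P2rx7-/- control replicate 1 had the lowest Ct, and so the highest abundance. MiR-338-3p had levels of 1.89, 0.45 and 0.69 in wt control and of -0.45, -0.10 and -0.46 in P2rx7-/- control samples, with no overlap. Its difference was -1.34 ± 0.47 (limma adjusted p = 0.792), and -0.90 ± 0.30 without wt control replicate 1, the highest of the 6. MiR-338-5P had levels of 2.59, 1.72 and 0.85 in wt control and of 0.01, 1.21 and 0.37 in P2rx7-/- control samples, a difference of -1.19 ± 0.58 that was -0.76 without wt control replicate 1, and the groups overlapped. The third analyzed assay of the oligodendrocyte list, miR-219, had a difference of 0.57 with and -0.42 without wt control replicate 1. The summed linear level of the 3 analyzed assays was 10.03, 7.05 and 5.95 in wt control and 3.79, 5.43 and 3.40 in P2rx7-/- control samples, without overlap. Both arms of miR-338 enter this sum, and hsa-miR-338, with its highest abundance in P2rx7-/- control replicate 1, does not. The non-overlap thus depends on which assays were summed and is no measure of oligodendrocytes. No share of other sums without overlap was computed, and 0 of the 3 passed limma's adjusted threshold.

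In the let-7 family, which holds back proliferation in differentiated cells, the guide strands with the same seed were not alike. MiR-98 had levels of 2.74, 1.47 and 1.17 in wt control and of 0.20, 0.61 and -4.88 in P2rx7-/- control samples, and let-7e levels of 6.26, 5.81 and 5.69 and of 5.35, 5.59 and 2.93. In both, all P2rx7-/- control samples were lower and replicate 3 by far the lowest. The differences of -3.15 ± 1.56 for miR-98 and -1.30 ± 0.77 for let-7e were -1.39 and -0.45 without P2rx7-/- control replicate 3. Let-7a had a difference of 0.90 ± 1.05 with overlapping groups, and of -0.29 without P2rx7-/- control replicate 1. Of the 7 analyzed guide strands of the family 3 had a difference above 0 and 4 below, with a median of -0.20, and 0.11 without wt control replicate 1, beside -0.00 and -0.01 over all 377.

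MiR-29b and miR-29c, which share a seed and target collagens and DNA methyltransferases, had the same pattern, and with let-7e they were singled out after their values were seen. MiR-29c had levels of 8.46, 7.58 and 7.63 in wt control and of 7.16, 7.33 and 5.25 in P2rx7-/- control samples. MiR-29b had levels of 3.47, 2.81 and 3.09 and of 2.56, 2.69 and 1.34. P2rx7-/- control replicate 3 was again the lowest, and the differences were -1.31 ± 0.66 for miR-29c and -0.93 ± 0.47 for miR-29b, or -0.64 and -0.50 without that sample.

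MiR-19a, a member of the miR-17-92 cluster, had levels of 1.76, 1.27 and 1.41 in wt control and of 0.40, 0.77 and -0.14 in P2rx7-/- control samples. The difference was -1.14 ± 0.36, and -1.0 without wt control replicate 1. MiR-467a, of the rodent Sfmbt2 cluster, had levels of 0.43, 0.46 and 0.64 in wt control and of -0.16, -0.64 and -1.26 in P2rx7-/- control samples, a difference of -1.19 ± 0.38. For both, the 3 wt control samples lay within 0.5 of each other, the P2rx7-/- control samples were spread more widely below them, and the limma adjusted p was 0.792. A second assay named mmu-miR-467a was not analyzed because replicate 1 of each genotype had no Ct. Its Ct values were 14.1 and 17.8 in wt control replicates 2 and 3. In P2rx7-/- control replicates 2 and 3 they were 14.7 and 15.8, between the wt control values.

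The most negative difference of all 377 was that of miR-1898, and it came with a wide spread. Its levels were 9.09, 5.52 and -0.81 in wt control and -1.75, -3.61 and -6.08 in P2rx7-/- control samples. The groups did not overlap, but the wt control samples alone covered nearly 10 cycles. The difference of -8.41 ± 2.67 (limma adjusted p = 0.792) was -6.17 without wt control replicate 1. MiR-504, which targets p53 mRNA and lies in Fgf13, had a difference of -1.88 ± 0.72, miR-350 one of -0.90 ± 0.38 (-0.57 without wt control replicate 1) and miR-1191 one of -0.68 ± 0.29, each without overlap and with an adjusted p of 0.792 in limma.

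For miR-493-3p and miR-365, wt control replicate 1 set most of the size of a difference below 0. MiR-493-3p, from the imprinted Dlk1-Dio3 locus, had levels of 5.96, -2.23 and -2.69 in wt control and of -4.89, -2.87 and -4.43 in P2rx7-/- control samples. MiR-365 had levels of 5.55, 1.20 and 1.26 and of 1.07, 1.12 and 0.83. In both, wt control replicate 1 was more than 4 cycles above all other samples, and the differences of -4.41 ± 2.44 and -1.66 ± 1.24 were -1.60 and -0.22 without it, with all P2rx7-/- control samples still lower.

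**Figure D3:**
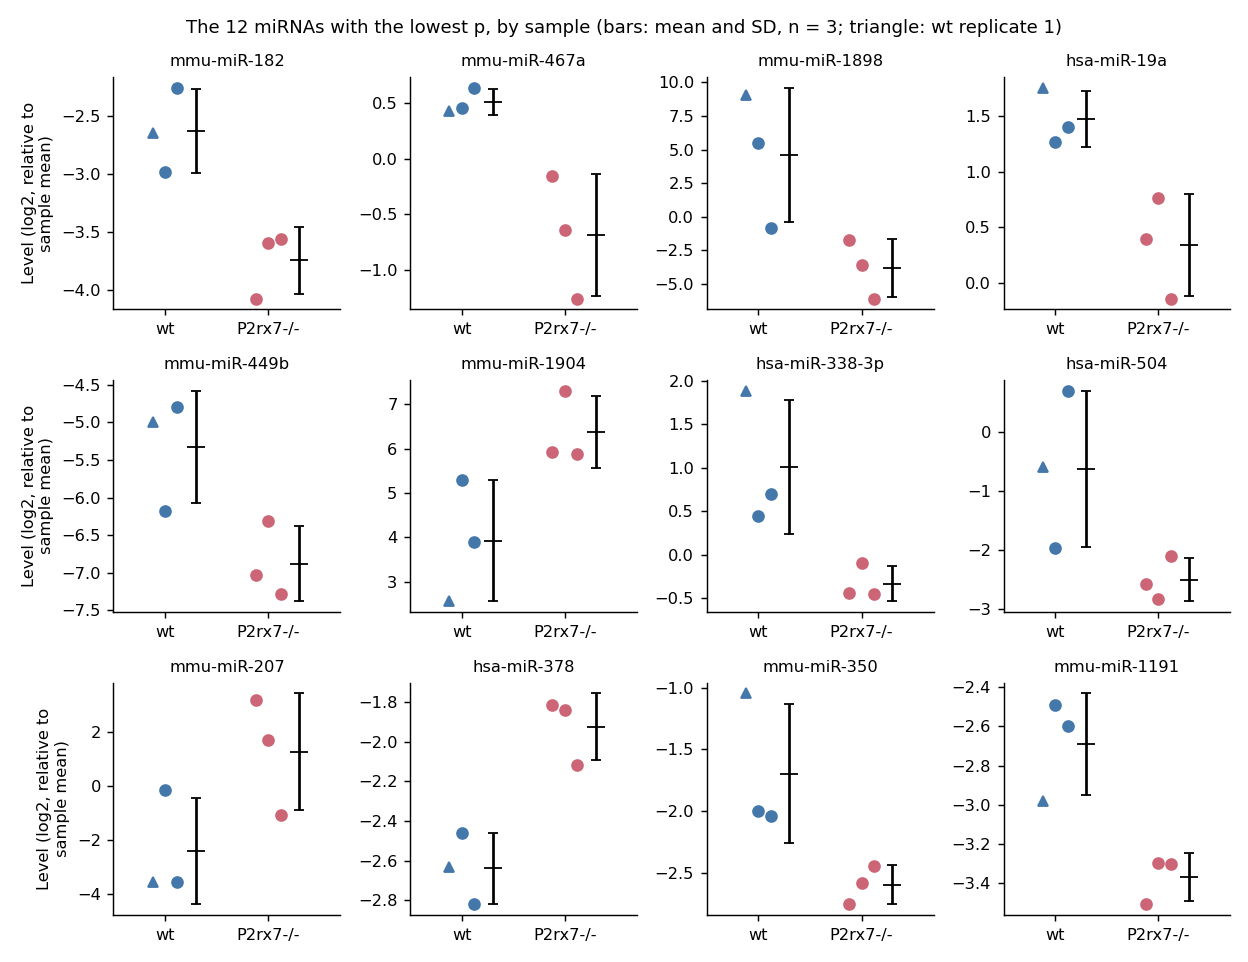
Level (log2, relative to the sample mean; y axes differ between panels) of the 12 miRNAs at the lowest end of the limma p-values, by wt control sample (blue) and P2rx7-/- control sample (red), with the mean and SD of each group (n = 3) as bars. The triangle is wt control replicate 1. The groups do not overlap in 11 panels and overlap for mmu-miR-207, and no miRNA passed the adjusted threshold.

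Among miRNAs higher in all P2rx7-/- control samples, miR-1904 had the lowest p. Its levels were 2.56, 5.30 and 3.91 in wt control and 5.92, 7.31 and 5.89 in P2rx7-/- control samples. The difference was 2.45 ± 0.82, or 5.47 times the wt level (limma adjusted p = 0.792), and 1.77 without wt control replicate 1, the lowest of the 6. MiR-378, which lies in the gene of a mitochondrial regulator and takes part in energy metabolism, had levels of -2.63, -2.46 and -2.82 in wt control and of -1.82, -1.84 and -2.12 in P2rx7-/- control samples. This difference of 0.71 ± 0.28 was smaller but came with little spread in both groups, and was 0.72 without wt control replicate 1. MiR-2135 had a difference of 0.74 ± 0.35, also without overlap.

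Others among the higher miRNAs depended on the sample that stood apart. MiR-376a, of the imprinted Dlk1-Dio3 locus, had levels of -5.97, 3.42 and 3.20 in wt control and of 4.98, 3.44 and 4.17 in P2rx7-/- control samples, and its difference of 3.98 ± 2.64 was 0.89 without wt control replicate 1. MiR-129, enriched in neurons, had levels of -4.32, -1.07 and -1.31 and of 0.94, -1.05 and -0.87, a difference of 1.91 ± 1.06 that was 0.87 without that sample. In wt control replicates 2 and 3 the level of miR-129 was within 0.5 of that in P2rx7-/- control replicates 2 and 3. The other arm, miR-129-3p, had levels of 1.41, 3.76 and 3.64 and of 8.83, 3.74 and 4.78, with overlap, and its difference of 2.85 ± 1.48 was 1.33 without P2rx7-/- control replicate 1. MiR-324-3p, from the hsa- assay, had a difference of 0.87 ± 0.48 and of 0.46 without wt control replicate 1. MiR-1903 went the other way, with a difference of 0.94 ± 0.85 and overlapping groups that was 1.82 ± 0.48 without wt control replicate 1.

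A list of 5 miRNAs reported or proposed to target the P2X7 receptor mRNA, which is not a full list of such miRNAs, was analyzed whole, and 0 of the 5 passed the test. Their differences were -0.12 ± 0.30 for miR-22, -0.21 ± 0.40 for miR-186, -0.58 ± 0.57 for miR-216b, 0.04 ± 0.56 for miR-187 and 3.52 ± 3.80 for miR-150. Those of miR-22, miR-186 and miR-187 were -0.04, -0.10 and -0.54 without wt control replicate 1. MiR-135a, a further regulator of the receptor that is not on the list, had a difference of -0.91 ± 0.65 with overlapping groups, and of -0.22 without P2rx7-/- control replicate 3. MiR-150, a lymphocyte miRNA, had levels of -6.62, 6.58 and 6.69 in wt control and of 4.01, 6.28 and 6.91 in P2rx7-/- control samples. Wt control replicate 1 was more than 10 cycles below its group, and without it the difference of miR-150 was -0.90. The median of the 5 was -0.12 with wt control replicate 1 and -0.52 without it, when all 5 lay below 0, and the groups overlapped for each with all 6 samples. The 95% interval of miR-22, the narrowest of the 5, ran from -0.87 to 0.64.

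Of the 8 analyzed assays for miRNAs of microglia, leukocytes and inflammation, 4 had a difference above 0 and 4 below, with a median of 0.09 and 0 past the adjusted threshold. The sample that stood apart turned this median, which was -0.19 without it, with 3 above 0 and 5 below. MiR-155, which promotes inflammatory signalling, had levels of 0.41, -0.25 and 0.56 in wt control and of -0.76, 0.56 and 5.54 in P2rx7-/- control samples. P2rx7-/- control replicate 3 alone was far above the rest, and the difference of 1.54 ± 1.65 was -0.34 without it. MiR-142-3p, a miRNA of blood-derived cells and microglia, was higher in all P2rx7-/- control samples by 0.19 ± 0.27 (-0.46 with snoRNA202 as the reference). Its levels were 1.11, 1.27 and 1.32 in wt control and 1.37, 1.33 and 1.58 in P2rx7-/- control samples. The other arm, miR-142-5p, had a difference of -0.56 ± 0.52 with overlapping groups, and of -0.80 without wt control replicate 1. The difference of miR-21 was -1.04 ± 0.69, and -0.38 without wt control replicate 1. That of miR-146b was -0.17 ± 0.42 in the hsa- assay and -0.00 ± 0.30 in the rno- assay. Without wt control replicate 1 these were -0.51 and -0.16. The assays named miR-223 had differences of 0.19 ± 0.62 and 0.26 ± 0.54, and of -0.22 and 0.18 without that sample. The study also names let-7e, let-7a, miR-181c, let-7d# and let-7f as inflammation-related for vehicle-injected P2rx7-/- mice, of which let-7e and let-7a are given above. MiR-181c had a difference of -1.52 ± 0.94 (-0.51 without P2rx7-/- control replicate 3), let-7d# one of 0.69 ± 0.61 and let-7f one of 0.31 ± 0.69 (0.51 when wt control replicate 1 was left out, -0.43 when P2rx7-/- control replicate 3 was), each with overlapping groups and an adjusted p of 0.792 to 0.881 in limma.

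MiR-671-3p, miR-129, miR-431# and miR-20b are the examples that the study names for this comparison. The groups of miR-129, described above, did not overlap, and those of the rest did. MiR-671-3p had levels of -3.20, -1.72 and -2.39 in wt control and of 1.60, -1.73 and -1.76 in P2rx7-/- control samples, and its difference of 1.81 ± 1.04 was 0.69 without P2rx7-/- control replicate 1. MiR-431# had levels of 2.65, -5.48 and -2.13 and of -7.23, -5.04 and -5.64, a difference of -4.31 ± 2.08 that was -2.16 without wt control replicate 1. For miR-20b the difference was 0.01 ± 1.01 in the hsa- assay and 0.39 ± 2.93 in the rno- assay, where P2rx7-/- control replicate 2 was at 6.18 and the other P2rx7-/- control samples at -3.81 and -3.60. The assays gave -0.98 and -0.10 without wt control replicate 1. In the assay of miR-671-3p and the rno- assay of miR-20b, 1 P2rx7-/- control sample lay more than 3 cycles above the others of its group.

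Lists of miRNAs by cell type and genomic cluster had medians on both sides of 0, with 0 members past the adjusted threshold in each. The shares to set them against are those over all 377, of which 50.9% lay below 0 and 13.3% did not overlap. Of the 9 analyzed neuron-enriched assays, 6 had a difference above 0, with a median of 0.37, and 0.02 without wt control replicate 1. MiR-124a, miR-9, miR-132, miR-138 and miR-218 are on this list but were not analyzed, as none had a Ct in all 6 samples. The neuron-enriched values given here therefore do not cover them. MiR-124a had Ct values of 13.7 to 15.6 in 5 samples and none in P2rx7-/- control replicate 1. Of the 11 assays of choroid plexus, ependyma and epithelium 8 lay below 0, with a median of -0.33, and -0.41 without wt control replicate 1, and the 2 without overlap were miR-449b and miR-34c. The summed linear level of these 11 overlapped, at 93.0, 370 and 353 in wt control and 90.9, 438 and 340 in P2rx7-/- control samples.

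The 12 assays of the miR-17-92 and paralogous clusters had a median of -0.19 with 8 below 0, and the 2 without overlap were miR-19a and miR-93 (-0.56), both lower. Their median was -0.43 with 9 below 0 when wt control replicate 1 was left out. The 55 assays of the imprinted locus had a median of -0.16, 32 below 0, and 4 without overlap, 1 higher and 3 lower. That median was 0.00 without wt control replicate 1, with 28 above and 27 below 0. Of the 10 assays of the Sfmbt2 cluster 5 lay above and 5 below 0, with and without that sample. Of 68 passenger strands 33 lay above and 35 below 0 (30 and 38 without it), beside 152 and 157 of the other 309 assays (156 and 153). The 2 analyzed erythrocyte assays had differences of -0.54 and -0.00, and of 0.26 and 0.43 without wt control replicate 1. Only 2 of 19 assays on a list for miRNAs of liver, heart, pancreas and stem cells had a Ct in all 6 samples. On a separate list for skeletal and heart muscle all 5 assays had one. Their median difference was -0.09, and 0.29 without wt control replicate 1.

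**Figure D4:**
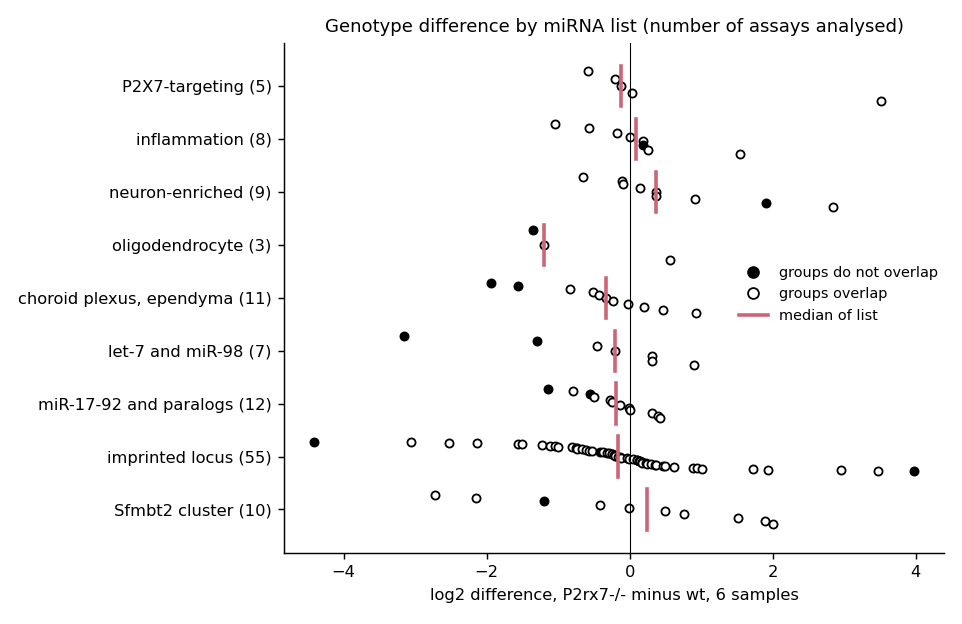
Log2 difference, P2rx7-/- control minus wt control (x axis, 6 samples), of each analyzed assay of 9 lists (y axis, number of assays in brackets). Filled circles are assays whose groups did not overlap, open circles those whose groups did, and the red line is the median of the list. Each list spans 0, the oligodendrocyte list has its median at -1.19 and the neuron-enriched list at 0.37.

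Assays that share a miRNA name did not always share a difference. Whether they detect the same sequence is not known, and the mean Ct of the assays named miR-136 was 14.8 and 20.4. Of 21 groups of assays whose names differ in species prefix or version alone, 11 had differences of 1 sign throughout. The median range within a group was 0.55 on the log2 scale. MiR-207 showed how far such assays could differ, since the mmu- assay, with levels of -3.55, -0.15 and -3.57 in wt control and of 3.21, 1.72 and -1.05 in P2rx7-/- control samples, had a difference of 3.72 ± 1.45 and the rno- assay one of -0.88 ± 0.59 (-0.57 without wt control replicate 1). The mmu- assay for miR-324-3p had a difference of 0.81 with and -0.87 without wt control replicate 1. Of 75 hairpins with both arms analyzed, 44 had differences of the same sign in both arms.

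The genotype difference was also measured after status epilepticus, in other mice, for 335 miRNAs with a Ct in all 12 samples. With limma 0 of 335 (0%) passed the adjusted threshold there and 4 (1.19%) had an unadjusted p below 0.05. The sign of the genotype difference was the same in vehicle and post-SE samples for 153 of 335 (45.7%), and the Spearman rho of the differences across miRNAs was -0.02. Without wt control replicate 1 these were 164 (49.0%) and -0.03. The median absolute difference was 0.445 in vehicle and 0.296 in post-SE samples. The interaction of genotype and treatment had an adjusted p below 0.05 for 0 of 335 (0%) and an unadjusted p below 0.05 for 8 (2.39%), with a lowest adjusted p of 0.851 in limma.

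The miRNAs with the lowest p in vehicle samples were not alike in this. The post-SE difference was -0.56 ± 0.32 for miR-182, -0.71 ± 0.36 for miR-467a, -0.53 ± 0.34 for miR-19a and -0.59 ± 0.49 for miR-338-3p, below 0 as in the vehicle samples and smaller in size. For miR-449b it was 0.64 ± 0.57 and for miR-34c 0.40 ± 0.80, above 0. The other arm of miR-338, miR-338-5P, had a post-SE difference of 0.03 ± 0.49. Post-SE levels of miR-449b, scaled over the 335 miRNAs, were -7.63, -6.15 and -6.14 in wt and -6.82, -5.75 and -5.44 in P2rx7-/- samples, which overlapped, and its interaction of 2.21 had an unadjusted p of 0.0199 and an adjusted p of 0.851 in limma. For miR-34a and miR-376a, whose vehicle differences rested on wt control replicate 1, the post-SE differences were 0.55 ± 1.60 and 0.28 ± 1.98.

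**Figure D5:**
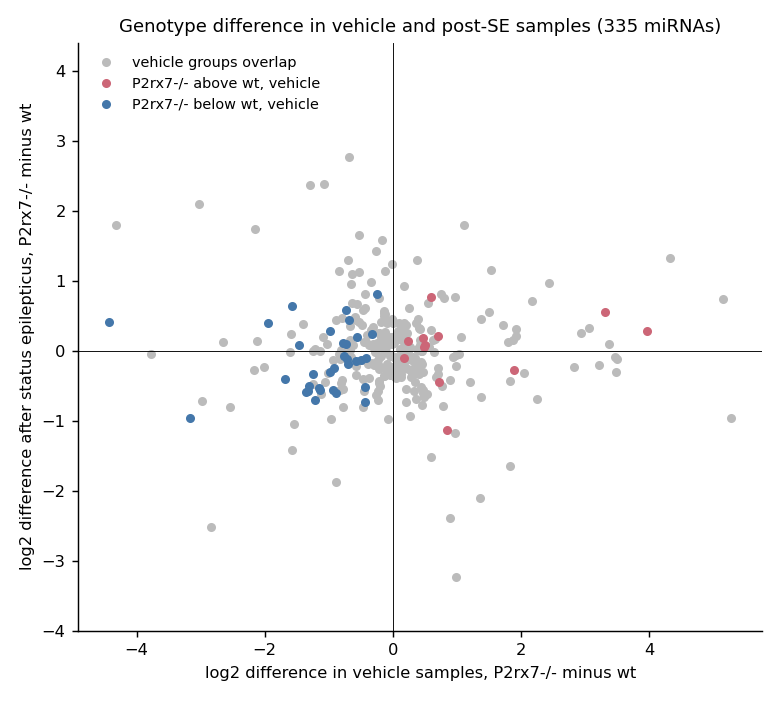
Log2 difference between the genotypes, P2rx7-/- minus wt, in vehicle samples (x axis) and in post-SE samples (y axis) for 335 miRNAs. Red and blue points had all P2rx7-/- control samples above or below all wt control samples in the vehicle groups. The points lie in all 4 quadrants, with the same sign in both treatments for 153.

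Outside the 377 miRNAs, 4 assays had a Ct in all 3 samples of 1 genotype and in none of the other. MiR-218, which comes from the Slit2 and Slit3 genes and is enriched in neurons, had Ct values of 10.9, 10.6 and 11.1 in P2rx7-/- control and none in wt control samples. These values were near the lowest Ct listed for any miRNA, 10.1, so a wt control sample without a Ct cannot be read as one without miR-218. After status epilepticus the assay had a Ct of 10.5 in wt replicates 1 and 2 and none in wt replicate 3. In the P2rx7-/- post-SE samples it had Ct values of 10.9, 10.8 and 10.7. The passenger strand miR-218-2# had a Ct in all 6 samples and a difference of -1.46 ± 1.08. Missing values were frequent at both ends of the range, at 35.8% for the 27 assays with a mean Ct of 10 to 12 and 30.4% for those of 24 to 28, against 9.15% for those of 16 to 20.

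Among vehicle samples, the other 3 assays had a Ct in wt control alone. Rno-miR-489 had Ct values of 19.96, 23.3 and 17.2, miR-1941-3P of 22.6, 27.0 and 22.8 and miR-217 of 24.4, 19.5 and 17.5. Within the wt control group each of them varied by more than 4 cycles, and each had a Ct in post-SE samples of both genotypes. A second assay named mmu-miR-217 had Ct values of 26.1, 25.6 and 19.5 in wt control. It had 23.0 and 25.5 in P2rx7-/- control replicates 1 and 2 and none in replicate 3. The absence from P2rx7-/- control samples therefore holds for 1 assay of miR-217 and not for the other. MiR-9, a neuronal miRNA, had no Ct in any wt control sample and values of 10.4 and 12.3 in 2 P2rx7-/- control samples, again at the low end of the range.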

How the data were processed

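Hippocampal miRNAs of 3 wt control and 3 P2rx7-/- control samples were measured by TaqMan OpenArray from 1 μg RNA after pre-amplification. The authors deposited Ct values, which are not normalized, and a table of fold changes per sample, a ratio that was not used here. The software of the Ct calls is not given in the sources used here. Listed miRNA Ct values ran from 10.1 to 28.0, and of 653 table lines 32 snoRNA and 2 plant lines were left out. The number of sample columns not assigned to a sample was 0.

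For the 377 miRNA assays with a Ct in all 6 samples, the mean Ct of the sample was subtracted, and limma 3.58.1 (R 4.3.3, lmFit and eBayes, Benjamini-Hochberg adjustment) tested the genotypes on the 6 samples. The interaction was fitted over 12 samples and 335 assays. FC was 2 to the power of -ΔΔCt against the average wt control ΔCt. All else used Python 3.11.15 with pandas 2.3.3, numpy 2.4.6, scipy 1.17.1 and, for the plots, matplotlib 3.10.9. The fit was tested on simulated data. A sample has 1 reading per assay, there is no depth to give, and the number of samples limits the precision. Pools of different mice were the replicates.

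Named miRNAs were the 12 with the lowest p, the 6 largest non-overlapping differences in each direction, the 6 with the lowest p without wt control replicate 1, 5 miRNAs the study names for this comparison (miR-671-3p, miR-129, miR-431#, miR-20b and miR-155), those of the P2X7-targeting, inflammation and miR-182 lists, same-name assays and opposite arms, and assays detected in 1 genotype. Others named, further miRNAs of the study and list or family members, were taken after their values were seen. The members and lists were chosen with earlier results of these data known. Alternatives covered the samples, the reference, filters, weights, the variance prior, the averaging of the FCs and the methods' two-group test.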

Additional observations from a re-analysis of the deposited data

Results flagged for a closer look

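The genotype difference of miR-1191 differed in direction between the treatments. Its levels were -2.98, -2.49 and -2.60 in wt control and -3.51, -3.30 and -3.30 in P2rx7-/- control samples, all lower, and, scaled over the 335 miRNAs, -3.41, -3.75 and -3.44 in wt and -3.26, -2.80 and -3.24 in P2rx7-/- post-SE samples, all higher. The interaction was 1.13 on the log2 scale, with an unadjusted p of 0.0126 and an adjusted p of 0.851 in limma, so it did not pass the correction.

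Outside the analyzed assays, miR-218 had a mean Ct of 10.9 in the P2rx7-/- control samples and no Ct in the wt control samples. It had a Ct in post-SE samples of both genotypes. Rno-miR-489, miR-1941-3P and 1 assay of miR-217 had mean Ct values of 20.2, 24.1 and 20.5 in the wt control samples and no Ct in the P2rx7-/- control samples. The other miR-217 assay had a Ct in P2rx7-/- control replicates 1 and 2. A missing Ct gives no level, and these differences were not tested.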

How the results depend on the processing

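The limma count of 0 at an adjusted p below 0.05 held under all 20 alternatives, 19 of which were planned, with a lowest adjusted p of 0.487 (snoRNA202 as the reference) to 0.918 and 3 to 20 miRNAs at an unadjusted p below 0.05. The interaction count was 0 in each of its alternatives. With the replicate number as a replicate block the limma count was 0, the lowest adjusted p 0.737 and the unadjusted count 7. The labels give the genotypes the same numbers, but the deviations of same-numbered samples correlated at only 0.0619, 0.139 and 0.0705, so the samples were not treated as paired, although each sample correlated best with its own number. Counts without a test moved more. Leaving out 1 sample at a time gave 28 to 81 miRNAs below an FC of 0.6, the lowest without wt control replicate 1, and 80 to 105 above 1.5. Non-overlapping miRNAs then numbered 21 to 33 higher and 46 to 78 lower, counts that can only grow when a sample is removed with the other values scaled as before. With the 432 assays that had a Ct in the 5 samples other than wt control replicate 1, an alternative chosen after seeing the data, 33 miRNAs were below 0.6, and 39 lay higher and 57 lower without overlap. The FC rule gave 48 above 1.5 and 160 below 0.6 with snoRNA202, and 73 and 75 with the geometric mean of the FCs. It gave 2 and 5 when a p below 0.05 in the methods' two-group test was also required. Non-overlapping miRNAs were 1 higher and 91 lower with snoRNA202, 5 higher with the mean of all detected assays, 12 lower with snoRNA135 and 30 higher when a Ct in 2 samples of each genotype was enough. The median difference of all miRNAs was -0.66 with snoRNA202, -0.12 with the mean of all detected assays and 0.07 with the median Ct. The alternatives were followed for 52 named assays, without those of miR-223, rno-miR-146B and miR-142-5p. Of the 52, 38 had differences of 1 sign under every alternative that could be run. The signs of others turned. With snoRNA202 the differences were -0.46 for miR-142-3p, -0.65 for hsa-miR-20b, -0.0833 for miR-219, -0.62 for miR-187, -0.35 for let-7f and -0.26 for rno-miR-20b. With the mean of all detected assays they were -0.11 for hsa-miR-20b and -0.0813 for miR-187. With array weights they were -0.45 for miR-150, -0.94 for hsa-miR-20b, -0.12 for miR-219, -0.49 for miR-187, -0.0166 for let-7f and -0.78 for mmu-miR-324-3p. With the assays shared by the 5 other samples they were -0.89 for miR-150, -0.98 for hsa-miR-20b, -0.41 for miR-219, -0.54 for miR-187, -0.86 for mmu-miR-324-3p and -0.0943 for rno-miR-20b. With assays that had a Ct in all 12 samples, and in the fit over all 12, hsa-miR-20b was at -0.00857. Leaving out 1 sample at a time gave -0.29 to 1.56 for let-7a, -0.43 to 0.69 for let-7f, -0.51 to 0.14 for miR-146b, -0.90 to 5.75 for miR-150, -0.45 to 0.0603 for miR-186, -0.98 to 0.61 for hsa-miR-20b, -0.42 to 1.09 for miR-219, -0.34 to 2.81 for miR-155, -0.54 to 0.38 for miR-187, -0.87 to 1.68 for mmu-miR-324-3p, -0.64 to 0.19 for miR-34b-5p, -1.05 to 0.0487 for miR-34c# and -2.90 to 2.09 for rno-miR-20b. The cause of these turns was not tested. With 3 samples per genotype and 1 well per assay, differences under 1.32 on the log2 scale could not be told from 0 for a typical miRNA.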
